A study of Mus musculus with 15 samples.

Results

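Chemokines of the CC family are small secreted proteins that draw leukocytes into tissue, and their receptors sit on the leukocytes that follow them. The 8 genes described here are 7 inflammatory ligands (Ccl2, Ccl3, Ccl4, Ccl5, Ccl7, Ccl8 and Ccl22) and 1 receptor (Ccr2), taken by name from the 48709 genes of the count table. All 8 were measured in islets of 15 female NOD mice, a strain that develops autoimmune diabetes, with 3 mice at each of 5 ages: 4, 6, 8, 10 and 12 weeks. No mouse was treated, every group shared the same genotype, and the groups were defined by age, so that 4 weeks served as the earliest reference. The labels name no litter, isolation day or library batch, so differences in collection between ages cannot be told apart from age. The islets, the endocrine cell clusters of the pancreas, were freed by collagenase and picked by hand, and each sample therefore holds endocrine cells together with whatever leukocytes, vessels and stroma stayed attached. In such bulk RNA, fewer cells of a type and less RNA per cell cannot be told apart.

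In the insulitis of NOD mice, macrophages, dendritic cells and lymphocytes gather around and within islets, and CC chemokines are among the signals made there. Ccl2, Ccl7 and Ccl8 belong to the monocyte chemoattractant group, whose classical receptor is Ccr2, the receptor that brings monocytes out of the bone marrow. Ccl3 and Ccl5 act through Ccr1, a receptor of myeloid cells, and Ccl4 is a close relative of Ccl3, while Ccl22 is a ligand of Ccr4, found on regulatory and helper T cells.

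Of the 8 genes, 6 lie on chromosome 11, within 1629113 bases that hold 11 genes named Ccl (build GRCm38). Ccl2 (ENSMUSG00000035385, chr11:82035571-82037453), Ccl7 (chr11:82045712-82047525) and Ccl8 (chr11:82115185-82116799) sit together on the plus strand. Ccl5 (chr11:83525778-83530518) and Ccl3 (chr11:83647844-83649355) are on the minus strand, and Ccl4 (chr11:83662584-83664683) is on the plus strand beside Ccl3. Ccl22 (chr8:94745590-94751699) and Ccr2 (chr9:124101950-124113557) lie elsewhere, both on the plus strand. All 8 are annotated as protein coding. Neighbouring chemokine genes arose by duplication, so the transcripts were searched for stretches of 50 bases that also occur in another gene. None was found in the 7 ligands, and 1.91% of the stretches of Ccr2 were shared.

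The feature that gives the family its name is a pair of adjacent cysteines. It is shown for 6 of the ligands as 30 bases of coding sequence around the 2 cysteine codons, which are in capitals and lie in exon 2 of each gene (GENCODE transcripts on GRCm38, read 5′ to 3′ on the gene's strand).
Ccl2 (chr11:82036494-82036523): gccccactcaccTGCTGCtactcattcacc
Ccl7 (chr11:82046526-82046555): aatgcatccacaTGCTGCtatgtcaagaaa
Ccl8 (chr11:82116044-82116073): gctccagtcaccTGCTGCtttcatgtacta
Ccl4 (chr11:83663470-83663499): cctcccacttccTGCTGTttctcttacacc
Ccl5 (chr11:83529230-83529259): gacaccactcccTGCTGCtttgcctacctc
Ccl22 (chr8:94746922-94746951): gaagacagtatcTGCTGCcaggactacatc
The 2 codons read alike in 5 of these 6, and in Ccl4 the second is the other cysteine codon. The bases on either side differ between the genes.

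Read totals ran from 25407492 to 41616275 per mouse (median 28004882), 16554 of the 48709 genes passed the filter on low counts, and all 8 genes were among them. A count of 3, taken as the floor, equals 0.0753 to 0.128 CPM (reads of a gene divided by the effective size of its library) depending on the mouse. Mice of 1 age differed widely in Ptprc, the gene of the pan-leukocyte protein CD45: its CPM ran from 4.52 to 34.6 at 4 weeks, 5.86 to 39.6 at 6 weeks, 18.9 to 145 at 8 weeks, 178 to 444 at 10 weeks and 317 to 414 at 12 weeks. The 8 genes largely followed that order. Replicate 1 at 4 weeks and replicate 3 at 6 weeks, the mice with the most Ptprc of their ages, had the highest level of all 8 genes among their age mates. Replicate 1 at 8 weeks, with the least Ptprc of its age, had the lowest level of 7 of the 8, all but Ccl7.

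All 8 genes were higher at 12 weeks than at 4 weeks, by 4.88-fold (Ccl2) to 45.4-fold (Ccl8), and in each of them the 3 older mice lay above the 3 younger ones, as in 30.3% of all genes tested. All 8 had an adjusted p under 0.05 (edgeR quasi-likelihood test, Benjamini-Hochberg over 16554 genes), where 26.3% of all genes tested were called higher and 27.2% lower, and all 8 passed a fold change of 1.5 with an unadjusted p under 0.05, as did 20.9% of genes in that direction. The median log2 fold change of the 8 was 2.88, beside -0.05 for all genes. The larger estimates lay between 6 and 10 weeks, and from 4 to 6 weeks and from 10 to 12 weeks none of the 8 was called. Without replicate 1 at 4 weeks, the mouse with the most Ptprc of its age, all 8 were still called and the log2 fold changes rose to between 2.95 (Ccl2) and 8.52 (Ccl8). T cell and macrophage markers were also higher at 12 weeks, and the part of changing cell numbers in these results was not tested.

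**Figure D1:**
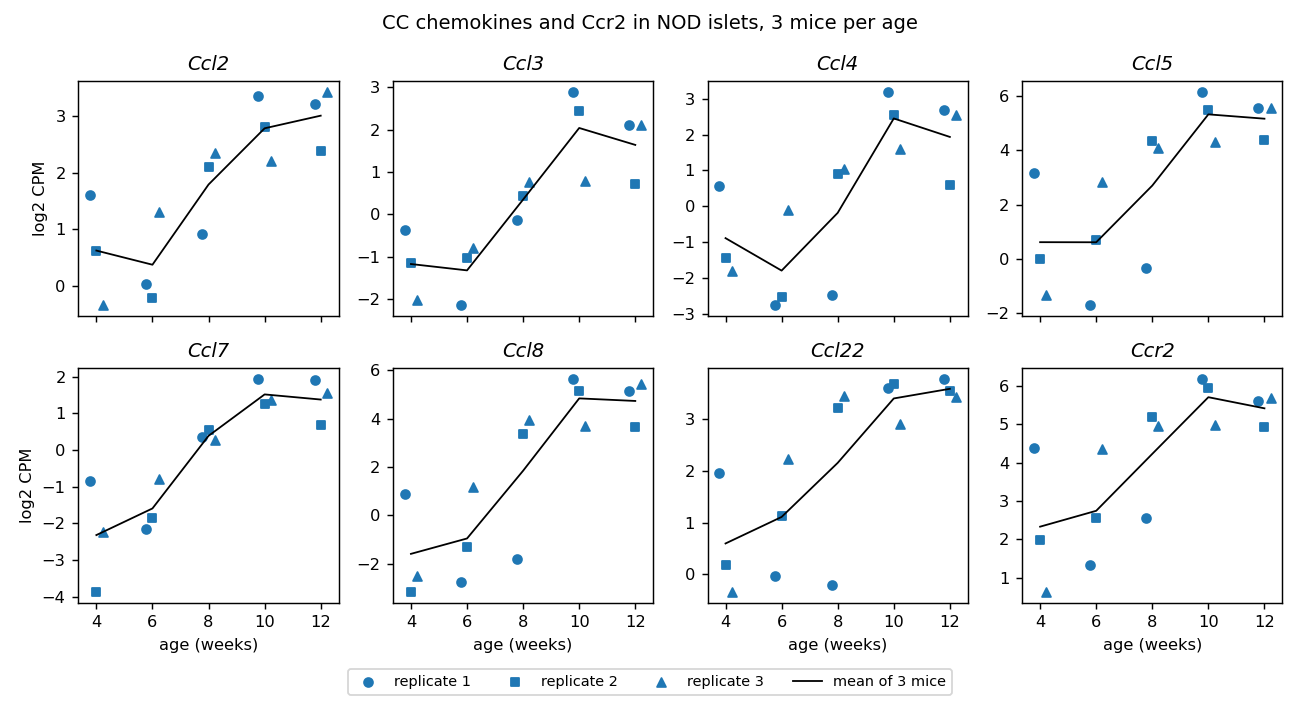
Level of each gene (log2 CPM, vertical axis, scale set per gene) against age in weeks, with 1 symbol per mouse and a line through the mean of the 3 mice. All 3 mice at 12 weeks lie above all 3 at 4 weeks for each of the 8 genes, and replicate 1 at 8 weeks lies within or below the range of the younger mice for all but Ccl3 and Ccl7.

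Ccl8, a monocyte chemoattractant that in the mouse also acts through Ccr8, changed most. In replicates 1, 2 and 3 it measured 1.8, 0.0427 and 0.109 CPM at 4 weeks, 0.0792, 0.342 and 2.21 at 6 weeks, 0.219, 10.4 and 15.5 at 8 weeks, 50.6, 35.6 and 13.1 at 10 weeks and 34.9, 12.5 and 43.1 at 12 weeks. The gene was at or under the floor of 3 counts in 3 of the 6 youngest mice and reached 374 to 1416 counts in every mouse from 10 weeks on. The log2 fold change from 4 to 12 weeks was 5.5 (SE 1.36, edgeR adjusted p = 0.00476), and replicate 1 at 4 weeks held 48 of the 52 counts of its age.

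Ccl2, the main attractant of Ccr2-bearing monocytes, started from a higher level and rose less. It measured 2.96, 1.45 and 0.723 CPM in the 3 mice at 4 weeks, 0.95, 0.789 and 2.4 at 6 weeks, 1.82, 4.21 and 5.03 at 8 weeks, 10.1, 6.9 and 4.52 at 10 weeks and 9.17, 5.15 and 10.7 at 12 weeks. No mouse was under 20 counts, so that this ligand was detected at every age. Its log2 fold change from 4 to 12 weeks was 2.29 (SE 0.57, edgeR adjusted p = 0.00506).

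Ccl7, the third of the group, was the least abundant of the 8 and the most even among the mice at 8 weeks. Its values were 0.486, 0 and 0.145 CPM at 4 weeks, 0.158, 0.21 and 0.512 at 6 weeks, 1.2, 1.39 and 1.14 at 8 weeks, 3.8, 2.31 and 2.49 at 10 weeks and 3.69, 1.54 and 2.86 at 12 weeks. Replicate 1 at 8 weeks, low for the other genes, was level with its age mates here. The log2 fold change from 4 to 12 weeks was 3.62 (SE 0.678, edgeR adjusted p = 0.00101), the smallest p of the 8, with 0 to 13 counts in the young mice and 46 to 114 in the old.

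Ccl5, made by T cells and NK cells among others, was the ligand with the most counts. It measured 8.9, 0.94 and 0.326 CPM at 4 weeks, 0.238, 1.55 and 7.09 at 6 weeks, 0.729, 20.2 and 17.1 at 8 weeks, 71.8, 45.2 and 20 at 10 weeks and 47.2, 21 and 47.3 at 12 weeks. The spread among the young mice was wide: at 4 weeks the highest mouse had 238 counts and the lowest 9. The log2 fold change from 4 to 12 weeks was 3.5 (SE 1.23, edgeR adjusted p = 0.0294), and the call was lost (adjusted p up to 0.096) when replicate 2 or 3 at 4 weeks, or replicate 1 or 3 at 12 weeks, was left out.

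Ccl3 and Ccl4, neighbouring genes whose products are made by activated macrophages and lymphocytes, were low in young mice. Ccl3 measured 0.711, 0.385 and 0.181 CPM at 4 weeks, 0.158, 0.421 and 0.512 at 6 weeks, 0.839, 1.28 and 1.64 at 8 weeks, 7.41, 5.37 and 1.66 at 10 weeks and 4.24, 1.57 and 4.24 at 12 weeks. Ccl4 measured 1.42, 0.299 and 0.217 CPM at 4 weeks, 0.0792, 0.105 and 0.867 at 6 weeks, 0.109, 1.78 and 2 at 8 weeks, 9.11, 5.78 and 2.99 at 10 weeks and 6.35, 1.44 and 5.75 at 12 weeks. Both had their lowest value of the last 2 ages in replicate 2 at 12 weeks, and for Ccl4 that mouse, at 1.44 CPM, barely cleared the highest at 4 weeks, at 1.42 CPM. The log2 fold changes from 4 to 12 weeks were 2.97 for Ccl3 (SE 0.645, edgeR adjusted p = 0.00234) and 2.79 for Ccl4 (SE 1, edgeR adjusted p = 0.032). The call of Ccl4 was lost on leaving out the same mice as for Ccl5, with an adjusted p of up to 0.112, while that of Ccl3 held without any 1 mouse.

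Ccl22, a product of dendritic cells and macrophages, was the most even of the 8 at 12 weeks. It measured 3.82, 1.07 and 0.723 CPM at 4 weeks, 0.911, 2.13 and 4.61 at 6 weeks, 0.802, 9.23 and 11 at 8 weeks, 12.2, 12.9 and 7.51 at 10 weeks and 13.8, 11.8 and 10.7 at 12 weeks. Replicates 2 and 3 at 8 weeks already reached the range of the older ages, and replicate 1 was as low as the youngest. Its log2 fold change was 2.69 (SE 0.818, edgeR adjusted p = 0.0148). Without replicate 2 or 3 at 4 weeks it was not called, with an adjusted p of up to 0.0611.

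Ccr2 measured 20.9, 3.89 and 1.48 CPM at 4 weeks, 2.46, 5.79 and 20.3 at 6 weeks, 5.83, 36.1 and 30.8 at 8 weeks, 72.9, 61.6 and 31.4 at 10 weeks and 49, 30.6 and 51.7 at 12 weeks. The highest mouse at 4 weeks and the lowest at 12 weeks were closer than for each ligand but Ccl4. The log2 fold change was 2.32 (SE 0.92, edgeR adjusted p = 0.0487), the least certain of the 8. It was not called when any 12-week mouse or replicate 2 or 3 at 4 weeks was left out (adjusted p up to 0.145), nor with no filter on low counts. In a test of any difference over the 5 ages, 7 of the 8 genes were called, beside 56% of all genes, and Ccr2 was not (edgeR adjusted p = 0.0612).

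Between 4 and 6 weeks, the interval before the rise, none of the 8 genes was called higher or lower, where 0.00604% of genes were called higher and 0.0846% lower, all 8 groups overlapped (8.34% of genes had no overlap with 6 weeks higher), and none passed the 1.5-fold threshold (1.15% higher). The log2 fold changes ran from -0.95 (Ccl4) to 0.44 (Ccl22), and 4 of the 8 were above 0. Their SEs of 0.585 to 1.5 leave changes of several fold undetectable at this number of mice.

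Between 6 and 8 weeks the estimates of all 8 genes were above 0, with a median of 1.85. None of the 8 had an adjusted p under 0.05, and no gene of the 16554 did (0%), although 2983 genes (18%) had an unadjusted edgeR p under 0.05. The study's own threshold was a fold change of at least 1.5 and an unadjusted p under 0.05. The study applied it to the Empirical Analysis of DGE of the CLC software, a different test from the quasi-likelihood test used here. With the quasi-likelihood test, Ccl2, Ccl3, Ccl7 and Ccl8 passed this threshold, 4 of the 8, beside 8.4% of genes higher. That count rested on single mice: it was 8 without replicate 3 at 6 weeks, 7 without replicate 1 at 8 weeks, 3 without replicate 2 at 8 weeks, 2 without replicate 2 at 6 weeks, and 1 without replicate 1 at 6 weeks or replicate 3 at 8 weeks. Ccl8 had the largest estimate (log2 fold change 3.37, SE 1.27, edgeR adjusted p = 0.213), followed by Ccl5 (2.12, SE 1.2) and Ccl7 (2.09, SE 0.654, edgeR adjusted p = 0.181). In Ccl3 and Ccl7 the 3 mice at 8 weeks lay above the 3 at 6 weeks, as in 7.62% of genes. Leaving out replicate 1 at 8 weeks brought Ccl8 to an adjusted p of 0.0493 (edgeR) and raised the genes called from 0 to 797. Ccl7 was called by DESeq2 and by the edgeR exact test (adjusted p down to 0.0278).

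Between 8 and 10 weeks Ccl3 was called (log2 fold change 1.94, SE 0.583, edgeR adjusted p = 0.0427), 1 of the 8, beside 8.4% of genes called higher and 8.37% lower. At the 1.5-fold threshold Ccl3 and Ccl4 passed, 2 of the 8, beside 11.1% of genes. The mice at 10 weeks lay above all those at 8 weeks in Ccl3, Ccl4 and Ccl7, and 17.2% of genes showed that pattern. Among the genes that did not pass, estimates ran from 0.63 (Ccl22) to 1.92 (Ccl8) with SEs of up to 1.12. The call of Ccl3 was lost without replicate 1 or 2 at 8 weeks or replicate 1 or 2 at 10 weeks, with an adjusted p of up to 0.173.

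From 10 to 12 weeks the estimates were near 0. None of the 8 was called by edgeR (0% of genes were called in either direction, and 1244 had an unadjusted p under 0.05), none passed the 1.5-fold threshold (1.61% of genes higher), and all 8 groups overlapped (4.42% of genes had no overlap with 12 weeks higher). The log2 fold changes lay between -0.52 (Ccl3) and 0.22 (Ccl2), with SEs of 0.527 to 1.07, so that a change of 2-fold in either direction was within the error for most of them.

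**Figure D2:**
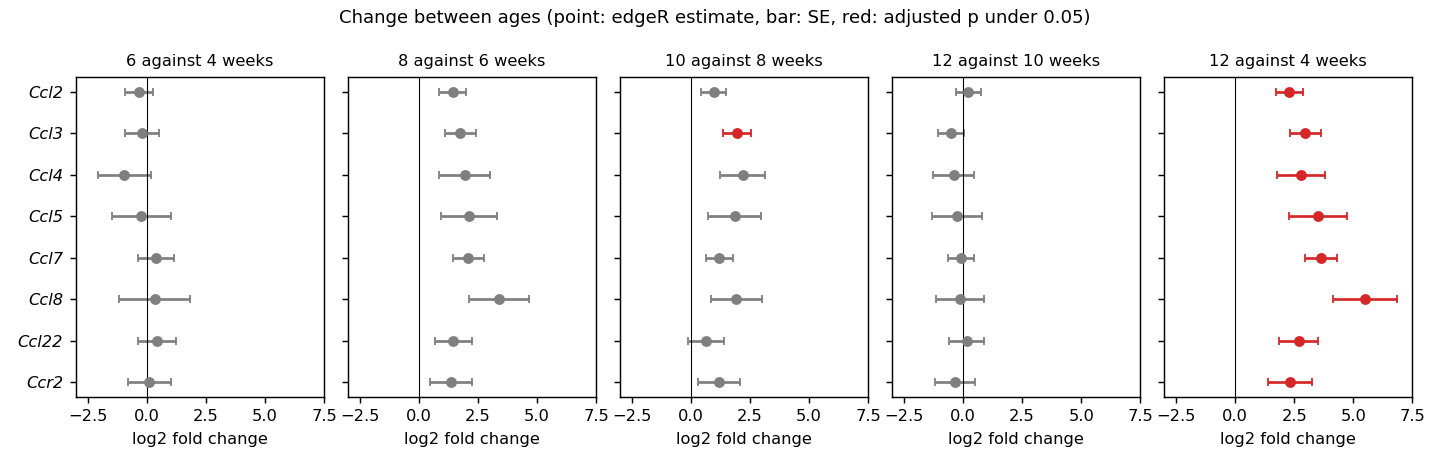
Log2 fold change of each gene (horizontal axis) in 5 comparisons of ages, 1 panel each, with points for the edgeR estimate, bars for its SE, and red for an adjusted p under 0.05. Estimates lie to the right of 0 for all 8 genes in the middle intervals, and the 12 against 4 weeks panel is red throughout, from 2.29 (Ccl2) to 5.5 (Ccl8).

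Levels were compared between genes on the TPM scale, which corrects for transcript length. At 12 weeks the order was Ccl8 (151 ± 84.7 TPM, SD, n = 3), Ccl5 (102 ± 42.4), Ccl2 (18.6 ± 7.25), Ccl4 (17.3 ± 10.4), Ccr2 (17.3 ± 5.15), Ccl22 (13 ± 1.07), Ccl3 (11.1 ± 5.33) and Ccl7 (8.47 ± 3.35). The ranges of neighbours overlapped everywhere but between Ccl5, at 53.4 TPM or more, and Ccl2, at 25.5 TPM or less. At 4 weeks Ccl5 averaged 7.02 ± 10 TPM, Ccl2 2.93 ± 2.05, Ccr2 2.71 ± 3.34 and Ccl8 2.54 ± 3.91, with ranges that overlapped throughout. The higher mean of Ccl5 came from replicate 1 alone (18.6 TPM), and in replicates 2 and 3 Ccl2 was above Ccl5 (2.37 against 1.82 TPM and 1.21 against 0.647 TPM).

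The mix of ligands therefore differed between young and old islets. Of the summed TPM of the 7 ligands, Ccl8 made up 9.55% ± 7.37 at 4 weeks (SD, n = 3), 14.8% ± 8.17 at 6 weeks, 30.6% ± 20.9 at 8 weeks, 44.5% ± 3.67 at 10 weeks and 45.2% ± 5.75 at 12 weeks. Ccl2 went the other way, from 25% ± 11.1 at 4 weeks to 6.11% ± 1.04 at 12 weeks, although its own level rose. The share of Ccl5 was 28.7% ± 15 at 4 weeks, with mice from 15.1% to 44.8%, and 32.5% ± 2.7 at 12 weeks. The share of Ccl8 was 2.23% to 17% in the 3 mice at 4 weeks and 39.4% to 50.9% at 12 weeks, and that of Ccl2 12.5% to 34% and 5.33% to 7.29%, so that neither overlapped between the ages; these shares were not tested. The summed ligand TPM behind these shares was 17.6 on average at 4 weeks and 321 at 12 weeks, and the shares at 4 weeks rest on few counts.

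**Figure D3:**
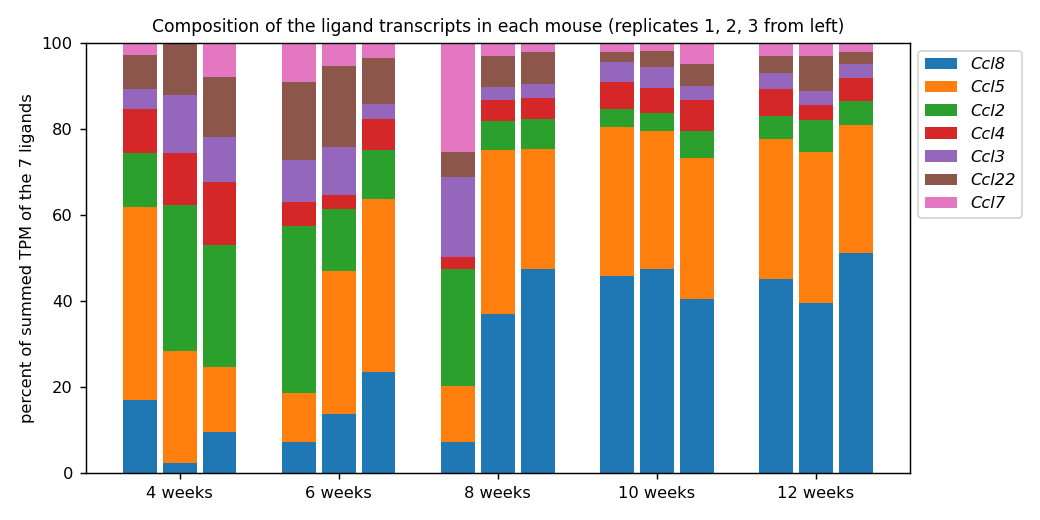
Share of each ligand in the summed TPM of the 7 ligands (vertical axis, percent) in each of the 15 mice, grouped by age. Ccl8 and Ccl5 together fill most of every column at 10 and 12 weeks, while Ccl2 holds 12.5% to 34% at 4 weeks and 5.33% to 7.29% at 12 weeks, and in replicate 1 at 8 weeks Ccl7 holds 25.5%, more than in any other mouse.

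The levels were next set against leukocyte markers of the same mice. At 12 against 4 weeks all 10 macrophage markers rose, with a median log2 fold change of 2.27 (for example Adgre1 1.97 and Csf1r 2.35), as did all 9 T cell markers, with a median of 4.76 (Cd3e 4.76), and 4 of 5 monocyte markers tested. Of all genes tested, 26.3% were called higher in that comparison. Summed CPM of the macrophage list ran from 83.8 to 199 at 4 weeks and 479 to 722 at 12 weeks, and that of the T cell list from 3.15 to 37.8 and 364 to 496. Ccl2 kept a nearly fixed distance to the macrophage mean: its log2 CPM less that mean was -2.25 ± 0.24 at 4 weeks and -2.3 ± 0.28 at 12 weeks (SD, n = 3), a difference of -0.05 (exact permutation test, two-sided, p = 0.7). Ccl8 did not, moving from -4.46 ± 1.62 to -0.57 ± 0.67, a difference of 3.89 with no overlap (exact permutation p = 0.1), and Ccl7 moved by 1.26 (exact permutation p = 0.1). The other 5 genes moved by 0.37 (Ccl3) to 2.12 (Ccl5), with p from 0.2 to 0.7 by the same exact permutation test. Of 24 such exact permutation comparisons, 3 references for each of 8 genes, none could go below p = 0.1, the smallest that 3 mice against 3 allow, so none passes 0.05 before or after adjustment.

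Against Ptprc, at 15.9 ± 16.3 CPM at 4 weeks and 351 ± 54.6 at 12 weeks (SD, n = 3), 7 of the 8 genes lay lower at 12 weeks than at 4 weeks. The differences were -2.58 for Ccl2, -2.15 for Ccl3, -2.13 for Ccl4, -1.97 for Ccl22 and -1.88 for Ccr2, in each case with no overlap between the ages (exact permutation p = 0.1 each). Ccl5 moved by -0.4 and Ccl7 by -1.26, with overlap, while Ccl8 stood 1.37 higher, also with overlap (exact permutation p = 0.5, 0.2 and 0.2). Against the mean of the T cell markers, 7 of the 8 again lay lower, with differences from -1.16 (Ccl5) to -3.34 (Ccl2), and Ccl8 was the 1 gene above 0, at 0.6 (exact permutation p = 0.5). Both references rose steeply, the T cell markers by a median log2 fold change of 4.76, beside -0.05 for all genes tested. A gene that did not change therefore lies lower by construction. The share of all genes that lay lower was not computed, so these counts do not set the 8 genes apart. The log2 values have a prior count of 2. With a prior count of 0.5 the difference of Ccl7 was -0.46 to Ptprc (exact permutation p = 0.8), -1.49 to the T cell mean (exact permutation p = 0.5) and 2.06 to the macrophage mean (exact permutation p = 0.1), in place of -1.26, -2.02 and 1.26.

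**Figure D4:**
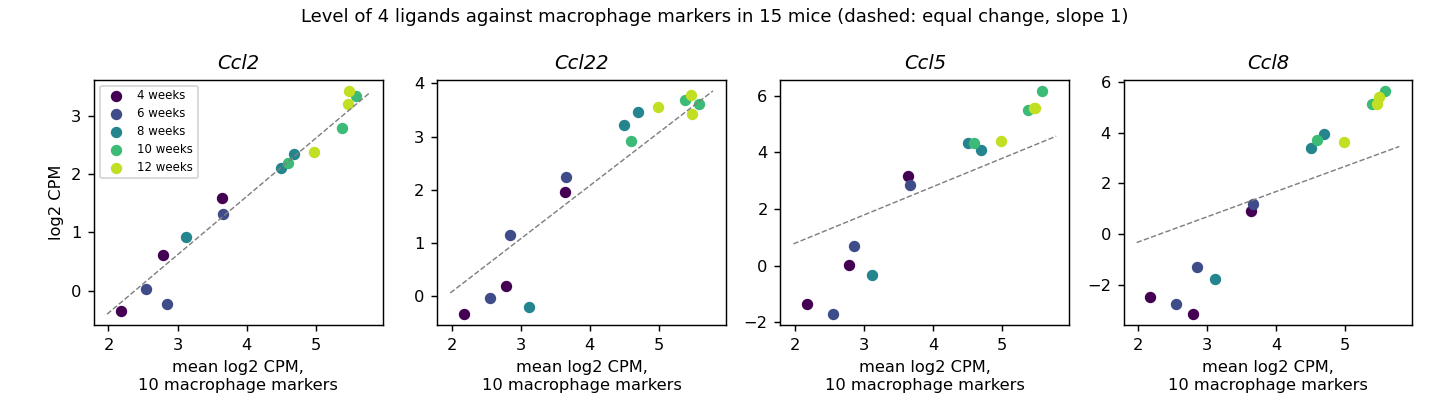
Log2 CPM of Ccl2, Ccl22, Ccl5 and Ccl8 (vertical axes) against the mean log2 CPM of 10 macrophage markers (horizontal axes), 1 point per mouse, coloured by age, with a dashed line of slope 1 through the mean of the 15 points. Points of Ccl2 follow the line, and those of Ccl8 climb more steeply than it, from below the line in the youngest mice to above it in the oldest.

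With the mean of the macrophage and T cell markers of each mouse as a covariate in the edgeR fit, none of the 8 genes was called higher at 12 against 4 weeks, and 0.924% of all genes were called. Ccl5 (log2 fold change -2.32, adjusted p = 0.0353) and Ccr2 (-1.59, adjusted p = 0.0494) were then called lower. Estimates of Ccl3 (0.7) and Ccl7 (2.3) stayed above 0 without passing the test. Since the covariate itself rises with age, age and leukocyte content cannot be told apart in these samples.

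The 8 genes were alike in their course. Over the 15 mice, the correlation between log2 CPM of pairs of them ran from 0.81 (Ccl4 with Ccl7, and Ccl7 with Ccl22) to 0.99 (Ccl5 with Ccr2). After removing the mean of each age it ran from 0.45 (Ccl7 with Ccl22) to 0.98. Their correlations with leukocyte markers over the 15 mice lay in the same range. These were 0.91 to 0.98 with Ptprc, 0.9 to 0.98 with the macrophage mean and 0.89 to 0.99 with the T cell mean. All genes were read from the same 15 libraries and share their depth and age, so these values are a description. Among all genes tested, those most like Ccl8 over the 15 mice were Itgax, the integrin CD11c of dendritic cells and macrophages (r = 0.997), Havcr2 (0.994) and Pld4 (0.994). Those most like Ccl5 were Nlrc5, a regulator of MHC class I genes (r = 0.995), Hk3 and H2-Q6 (0.993 each), and those most like Ccr2 were Il18rap (0.993), Phf11b (0.99) and the cytotoxic granule gene Nkg7 (0.989). Ccl22 was closest to the myeloid lectins Clec12a (0.987) and Clec10a (0.984) and to Tigit (0.985). Ccl4 was closest to Il18bp, Irf1 and Serping1 (0.986, 0.985 and 0.983), and Ccl3 to Socs3, Ddx58 and Ms4a7 (0.977, 0.975 and 0.973). For Ccl2 the nearest were Vac14 (0.988), Lgals1 (0.985) and Ifi204 (0.985), and for Ccl7 G6pdx, Psma8 and Nnmt (0.972, 0.965 and 0.962). Vac14 and G6pdx followed the course at a far smaller amplitude, with log2 fold changes of 0.22 and 0.56 at 12 against 4 weeks.

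Ccr1, Ccr4 and Ccr8, which bind ligands of the set, were also higher at 12 weeks. Ccr1, the receptor of Ccl3 and Ccl5 on myeloid cells, measured 1.48 ± 0.865 CPM at 4 weeks and 8.78 ± 2.86 at 12 weeks (SD, n = 3; log2 fold change 2.56, edgeR adjusted p = 0.00099). Ccr4, the receptor of Ccl22, went from 0.128 ± 0.154 to 1.6 ± 0.556 CPM (3.59, edgeR adjusted p = 0.0112), and Ccr8 from 0.265 ± 0.388 to 2.63 ± 0.91 CPM (3.27, edgeR adjusted p = 0.0198). Ccr1 was also called between 8 and 10 weeks (1.52, edgeR adjusted p = 0.0408). Ccr3, the eosinophil receptor, had at most 0.502 CPM in any mouse and did not pass the filter. Among atypical receptors, which lack classical signalling, Ackr1 of venular endothelium and red cells rose most, from 0.488 ± 0.211 to 10.8 ± 1.43 CPM (4.47, edgeR adjusted p = 0.000133). Ackr2 (1.56) and Ccrl2 (1.01) rose as well, while Ackr4 did not pass (0.72, edgeR adjusted p = 0.403).

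Of 14 further CC ligands, 10 were tested, 6 were called higher at 12 weeks and 2 lower. Of all genes tested, 26.3% were called higher in this comparison and 27.2% lower. The increases were led by Ccl19, a ligand of Ccr7 that guides T cells and dendritic cells in lymphoid tissue, which went from 2.99 ± 2.9 to 64.6 ± 10.4 CPM (log2 fold change 4.43, edgeR adjusted p = 0.00376), followed by Ccl21a (3.26), Ccl12 (3.13), Ccl6 (2.64) and Ccl9 (2.23); Ccl11, an eosinophil attractant, rose by 2.14. Ccl21a has near-identical copies in the mouse genome, among which reads can be split, and its value is uncertain for that reason. The 2 that fell were the mucosal chemokine Ccl28 (-0.68, edgeR adjusted p = 0.00809) and Ccl27a (-0.47, edgeR adjusted p = 0.0309). Ccl17, the other ligand of Ccr4 and the neighbour of Ccl22 on its chromosome, was not called at 12 against 4 weeks (-0.43, edgeR adjusted p = 0.478) but was called in the test of any difference over the 5 ages (edgeR adjusted p = 0.0171). It measured 0.32 ± 0.18 CPM at 4 weeks, 0.755 ± 0.293 at 6 weeks, 0.43 ± 0.0904 at 8 weeks, 0.195 ± 0.0839 at 10 weeks and 0.238 ± 0.0384 at 12 weeks (SD, n = 3), and was thus highest at 6 weeks on average. Ccl25, an intestinal and thymic chemokine, was not called (2.27, edgeR adjusted p = 0.0633); replicate 1 at 12 weeks held 400 counts of it and the other 14 mice 6 to 88, and that mouse also had a summed CPM of 308 for a list of intestinal genes against 37 to 119 in the others. Of the 4 other CC receptors, 3 rose steeply, namely Ccr6 (5.24), Ccr7 (5.16) and Ccr9 (4.41), which are carried by lymphocytes and, for Ccr7, also by dendritic cells, and Ccr10 did not (-0.02, edgeR adjusted p = 0.974).

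**Figure D5:**
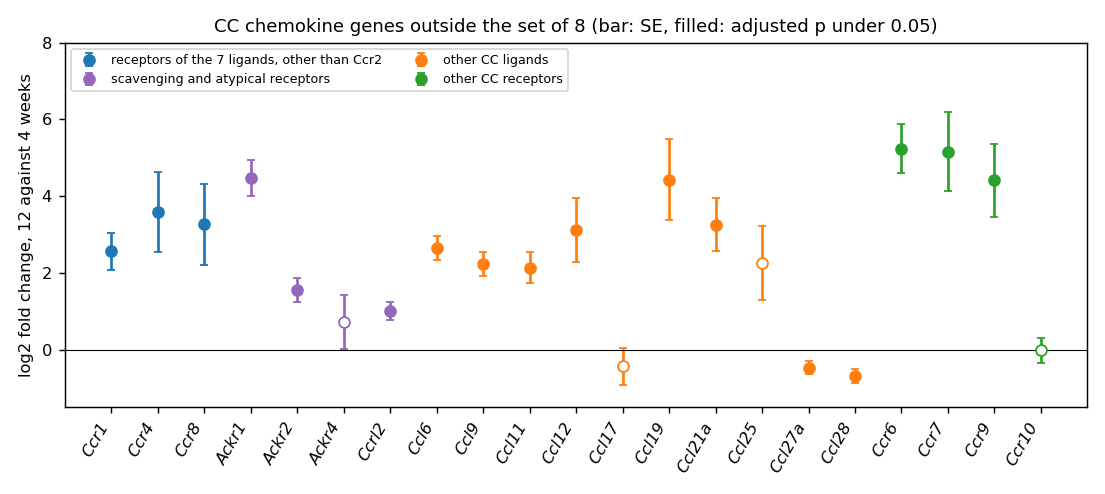
Log2 fold change at 12 against 4 weeks (vertical axis) of other CC chemokine genes, coloured by list, with SE bars and filled points for an adjusted p under 0.05. Ccr6 (5.24) and Ccr7 (5.16) are highest, and Ccl28 and Ccl27a are the 2 filled points below 0.

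Promoter sequence was at hand for 4 of the 8 genes (Ccl3, Ccl8, Ccl22 and Ccr2; RefSeq, GRCm38.p6), as windows of 300 bases placed around RefSeq's own start. For Ccl22 and Ccr2 the window reaches further into the gene interval given above than for Ccl3 and Ccl8. The AP-1 motif (TGANTCA, both strands, held by 7.81% of all 32851 windows) did not occur in these 4, nor did the NF-kB motif (1.63%) or the interferon response motif (3.44%) as searched. A TATA box (TATAAA, forward strand, 8.32% of promoters), searched after the values were known, occurred in Ccl8 alone, at -32. The Ccl8 window is shown as that of the gene with the largest change, with the TATA box in capitals (plus strand).
Ccl8 promoter (chr11:82114935-82115234): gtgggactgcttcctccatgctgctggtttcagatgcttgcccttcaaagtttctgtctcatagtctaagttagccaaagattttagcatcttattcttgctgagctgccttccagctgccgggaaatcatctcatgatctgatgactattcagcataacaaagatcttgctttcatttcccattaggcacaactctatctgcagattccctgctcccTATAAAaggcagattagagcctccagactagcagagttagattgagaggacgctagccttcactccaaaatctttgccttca
A match or its absence in these windows is a description of the letters only.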

How the data were processed

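RNA was extracted from islets of 15 female NOD mice and sequenced as paired reads from poly(A) libraries. The counts, raw whole reads per gene, were made by the authors in CLC Genomics Workbench with default settings on mm10. The authors also deposited TPM and RPKM per sample, used here only to compare levels between genes, and CPM columns, treated as a score and not used.

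Groups were the ages in the sample labels. The count test was edgeR 4.0.16 in R 4.3.3 (filterByExpr, TMM, glmQLFit with 1 mean per age over 15 samples, glmQLFTest), with Benjamini-Hochberg adjustment over all 16554 genes tested. CPM values use TMM-scaled totals, and log2 CPM adds a prior count of 2. Single differences were compared by exact permutation over mice. Data were simulated for 12 against 4 weeks with 16554 genes, of which 200 were changed. There, 66% of 2-fold and 79% of 4-fold changes were recovered, with 2 false calls. In the measured data 8858 genes were called in that comparison. Mice at 4 weeks also differed widely in Ptprc, from 4.52 to 34.6 CPM. The simulated recovery and false calls are therefore not estimates for the chemokine genes described here. The labels number the 3 mice of an age and say no more, so p-values cover the spread between these samples, which may be technical in part.

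The 8 genes and all lists were chosen with earlier results of these data known. Genes named besides the 8 are receptors of their ligands, the called genes of the other CC lists (for each list, at most 5 per direction), and the 3 genes most correlated with each of the 8, while marker lists are given by counts with examples. Ccl11, Ackr4, Ccl17, Ccl25 and Ccr10 were added after their values were seen. Alternatives were DESeq2 1.42.0, the edgeR exact test, other scalings, no filter, only the 2 ages compared, each mouse left out, a replicate block, a leukocyte marker covariate, a prior count of 0.5 and RPKM. Counting intervals and floors cover counting error only. Some items that fall under these rules are not reported here.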

Additional observations from a re-analysis of the deposited data

How the results depend on the processing

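At 12 against 4 weeks all 8 genes were called under the main settings, 5 with the replicate block (Ccl4, Ccl5 and Ccr2 lost), 0 with the macrophage and T cell marker mean as a covariate, 7 with no filter (Ccr2 lost), and 4 to 8 when 1 mouse was left out. Of those mice, replicates 2 and 3 at 4 weeks (4 called) and replicates 1 and 3 at 12 weeks (5 called) mattered most. Ccl2, Ccl3, Ccl7 and Ccl8 were called under all settings but the covariate. With the covariate the log2 fold changes below 0 were -0.05 for Ccl2, -2.21 for Ccl4, -2.32 for Ccl5, -1.17 for Ccl8, -1.05 for Ccl22 and -1.59 for Ccr2 at 12 against 4 weeks, -0.63 for Ccl4, -1.06 for Ccl5, -0.44 for Ccl8, -0.68 for Ccl22 and -0.6 for Ccr2 at 8 against 6 weeks, and -0.07 for Ccl2, -0.45 for Ccl5, -0.56 for Ccl8, -0.68 for Ccl22 and -0.53 for Ccr2 at 10 against 8 weeks. In the test of any difference over the 5 ages 7 genes were called, 0 with the covariate, 5 with the replicate block (Ccl5 and Ccl22 lost), 8 with DESeq2 and 8 with library totals (Ccr2 gained in both), and 5 to 8 without 1 mouse. At the 1.5-fold threshold the genes of the 8 that passed numbered 4 at 8 against 6 weeks (1 to 4 under the alternatives, 1 to 8 without 1 mouse), 2 at 10 against 8 weeks (0 to 3, and 1 to 2) and 8 at 12 against 4 weeks (1 to 8, and 5 to 8).

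Between 6 and 8 weeks 0 genes of the 8 were called, 1 by the edgeR exact test and 1 by DESeq2 (Ccl7 in both), and 0 to 1 without 1 mouse (Ccl8, without replicate 1 at 8 weeks). Between 8 and 10 weeks 1 was called (Ccl3), 0 with no filter, 0 with only the 2 ages compared, 0 with the replicate block, 0 with the covariate, and 0 to 1 without 1 mouse. The cause of these changes was not tested.

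At 6 against 4 weeks, where none was called, leaving out 1 mouse moved the log2 fold change between -0.98 and 0.34 for Ccl2, -0.58 and 0.39 for Ccl3, -2.73 and 0.38 for Ccl4, -1.82 and 2.23 for Ccl5, -0.2 and 1.85 for Ccl7, -1.5 and 3.36 for Ccl8, -0.27 and 1.51 for Ccl22, and -1.06 and 1.83 for Ccr2. At 12 against 10 weeks the same ranges were -0.03 to 0.55 for Ccl2, -0.73 to 0.04 for Ccl4, -0.6 to 0.24 for Ccl5, -0.38 to 0.19 for Ccl7, -0.51 to 0.31 for Ccl8 and -0.05 to 0.3 for Ccl22. Relative to the macrophage mean Ccl2 moved between -0.19 and 0.1, and relative to Ptprc Ccl5 between -0.74 and 0.06.

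Over all genes, the number called at 12 against 4 weeks was 8858 (153 to 8722 under the alternatives), at 10 against 8 weeks 2776 (0 to 4096, and 0 to 5612 without 1 mouse), at 8 against 6 weeks 0 (0 to 543, and 0 to 797), at 6 against 4 weeks 15 (5 to 249, and 0 to 6) and at 12 against 10 weeks 0 (0 to 12). Scaling by library totals moved the median over all genes (log2 fold change) by 0.244 at 12 against 4 weeks, 0.109 at 10 against 8 and 0.106 at 8 against 6, and made 78.1% and 78.9% of the calls at 12 against 4 and 10 against 8 weeks increases; it changed no direction of the 8 genes in these comparisons. The replicate numbers did not pair the mice: correlations of same-numbered mice ran from -0.643 to 0.509, 7 of 30 were over 0.1, and 1 of 15 mice correlated best with its own number. The order of levels at 12 weeks was the same in RPKM as in TPM.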

Other observations

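At 12 against 4 weeks, the other marker lists moved as follows (edgeR, adjusted p under 0.05, beside 26.3% of genes higher and 27.2% lower). All 6 B cell markers rose, with a median log2 fold change of 8.25, as did all 7 dendritic cell markers (3.25) and all 6 fibroblast genes (2.15). All 5 genes of a lymph node list, namely Glycam1, Madcam1, Chst4, Cr2 and Cxcl13, rose too (9.58). Of the cytotoxic and NK cell genes, 5 of 7 rose (median 3.8). Of 6 neutrophil genes only Csf3r and Cxcr2 passed the filter on low counts, and both rose (4.49). S100a8, S100a9, Retnlg and Ly6g did not pass it, and Cxcr2 ran from 0.471 to 5.08 CPM among the mice at 12 weeks. Endothelial genes rose in 4 of 6 cases (0.36). Of the 12 endocrine genes, 10 fell, with a median of -0.91. None of the 7 acinar genes was called (0.91). Of the 2 intestinal genes tested (0.78), Lgals4 was called higher. It ran from 3.37 to 5.3 CPM at 4 weeks and from 4.05 to 42.9 at 12 weeks, with overlap. The summed CPM of the intestinal list at 12 weeks was 308 in replicate 1, 45.7 in replicate 2 and 37 in replicate 3. The summed CPM of the acinar list ran from 1160 to 9760 at 4 weeks and from 2970 to 12300 at 12 weeks, and that of the neutrophil list stayed at 12.1 or less in every mouse.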
